A study of Mus musculus with 6 samples.

Results

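The metabotropic glutamate receptor genes *Grm2*, *Grm3*, *Grm4*, *Grm5*, *Grm7* and *Grm8* were examined in single cells of the mouse cerebral cortex at postnatal day 5 (P5). The members were chosen by name, as receptors of this family, and are 6 of the 17418 genes measured. InDrop encloses each cell in a droplet with a barcoded bead and labels the transcripts it captures with unique molecular identifiers (UMIs), so that copies are counted once. WT mice (FVB.129P2-Pde6b+ Tyrc-ch/AntJ) and *Fmr1*-KO mice (FVB.129P2-Pde6b+ Tyrc-ch Fmr1tm1Cgr/J, which carry the knockout allele in every cell) were compared, with 3 mice per genotype, both sexes used and no treatment. Beads of version V2 served for WT 1, *Fmr1*-KO 1 and *Fmr1*-KO 2, and those of version V3.8 for WT 2, WT 3 and *Fmr1*-KO 3. The bead version changed with the collection batch, and the effects of bead version and batch cannot be told apart.

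Metabotropic glutamate receptors are G protein-coupled receptors that respond to synaptically released glutamate over a slower time course than the ionotropic channels. *Grm5* encodes a group I receptor, which acts through Gq, phospholipase C and intracellular calcium, sits mainly on the postsynaptic side, and is also known from immature astrocytes. Its signalling drives local protein synthesis and long-term depression at synapses, and is exaggerated in the classical account of Fragile X syndrome, the disorder caused by loss of FMRP, the RNA-binding protein that *Fmr1* encodes. *Grm2* and *Grm3* encode the group II receptors and *Grm4*, *Grm7* and *Grm8* encode group III receptors. Both groups act through Gi/o proteins, lower cyclic AMP and often reduce transmitter release, with *Grm3* also known as the group II receptor of astrocytes.

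The members occupy genes of very different size, as positions in GRCm38 (GENCODE annotation) show. *Grm2* lies on chromosome 9 (106643095 to 106656082, minus strand, 13 kb) and *Grm4* on chromosome 17 (27422387 to 27521403, minus strand, 99 kb). *Grm3* lies on chromosome 5 (9485541 to 9725170, minus strand, 240 kb) and *Grm5* on chromosome 7 (87584168 to 88134907, plus strand, 551 kb). *Grm7* and *Grm8* are both on chromosome 6, at 110645581 to 111567230 (plus strand, 922 kb) and at 27275119 to 28135178 (minus strand, 860 kb). Of the members, only *Grm2* has another annotated gene, *Gm28111*, over its 3′ end, which leaves its counts less certain. The counts come from transcript 3′ ends, so levels are compared here between cells and mice for each gene, and not between genes.

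After the 1113 cells marked as doublets by the authors were left out, 17280 cells of 18 deposited subtypes remained, with 7909181 to 20629134 UMIs per mouse and a median of 1957 to 4908 UMIs per cell. *Fmr1* was at 68.4, 74.1 and 72.5 CPM (UMIs of the gene per 1000000 UMIs) in WT 1, 2 and 3 and at 17.2, 19.9 and 16.1 CPM in the *Fmr1*-KO mice, in that order, so that all 6 mice fit their labels. The markers of each of the 14 subtypes compared below were highest in that subtype, except in the small OPC_2 group, where the OPC markers summed to 2263 CPM against 2656 CPM in oligodendrocytes. Beside OPCs and oligodendrocytes the authors describe a small group of neural stem cells. Whether OPC_2 is that group was not tested, as it was checked against OPC markers only. Libraries of the same mouse shared many cell barcodes, in 3307 pairs of cells of which 3084 (93.3%) had the same subtype, whereas of 468 pairs between mice 16.7% did. The genotype tests of the members, the ratios of levels and the shares of cells were therefore also made with each barcode kept once per mouse, which left 14836 cells. The tests of order between subtypes, of genotype effects between types and of the genes around the receptors used all cells only. Whether such pairs are 1 cell counted more than once is not known, so the cell numbers, shares and intervals below, which use all cells, may count some cells more than once. In sums of UMIs per mouse and subtype, the unit of most values below, fewer cells with a transcript and fewer transcripts per cell cannot be told apart.

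The group I gene *Grm5* was shared between neurons and glia. Its level was highest in excitatory neurons, at 415, 321 and 299 CPM in WT 1 to 3 and 387, 325 and 265 CPM in *Fmr1*-KO 1 to 3 (mean 335 ± 55.8, SD, n = 6 mice). Astrocytes_1, the main astrocyte population, followed with 330, 234 and 226 CPM in WT and 367, 346 and 237 CPM in *Fmr1*-KO mice (290 ± 64.5 CPM). The order of these populations held in 5 of 6 mice, and their difference of 45.4 ± 43.1 CPM was not beyond the spread (two-sided exact sign-flip test within mice, p = 0.0938, adjusted p = 0.188 over the 24 neighbour pairs compared for all members). Next came interneurons with 141 ± 58.8 CPM, below Astrocytes_1 in every mouse, and OPC_1, the oligodendrocyte precursors, with 114 ± 26.5 CPM, which were in this order in 3 of 6 mice only (difference 27.0 ± 64.3 CPM, exact p = 0.375). Astrocytes_2, the small population with reactive astrocyte markers, held 65.3 ± 19.6 CPM, less than OPC_1 in every mouse.

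Ganglionic precursors held 20.7 ± 9.96 CPM of *Grm5*, below Astrocytes_2 in every mouse, and the remaining subtypes were lower still or close to this level. They ranged from 25.8 ± 9.75 CPM in OPC_2 (7 UMIs in all, 5 mice) and 20.3 ± 16.9 CPM in oligodendrocytes to 6.03 ± 3.85 CPM in endothelial cells and 4.29 ± 4.16 CPM in Cajal-Retzius (CR) cells, with no UMI in 65 migrating neurons of the subventricular zone (SVZ), which allows a share of cells with a UMI of up to 4.62% (3 cells of the total, for counting error only). Such limits do not bound the cells that carry the transcript, as most transcripts of a cell are missed. Shares of cells were compared after each cell was thinned to 700 UMIs, and among the 5 subtypes described first gave the same order as the levels, except that OPC_1 stood above interneurons. Then 18.6% of excitatory neurons (399 of 2147, 95% Clopper-Pearson interval 17.0 to 20.3%) and 15.9% of Astrocytes_1 (1014 of 6365, 15.0 to 16.8%) had a *Grm5* UMI, against 6.56% of OPC_1, 4.60% of interneurons and 3.60% of Astrocytes_2. Endothelial cells, which should lack the transcript, had a *Grm5* UMI in 0.210% of thinned cells, and the intervals cover counting error only. Without thinning, the shares were 41.1% of excitatory neurons (median depth 1274 UMIs), 51.3% of Astrocytes_1 (3755 UMIs) and 1.88% of endothelial cells (3687 UMIs).

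**Figure D1:**
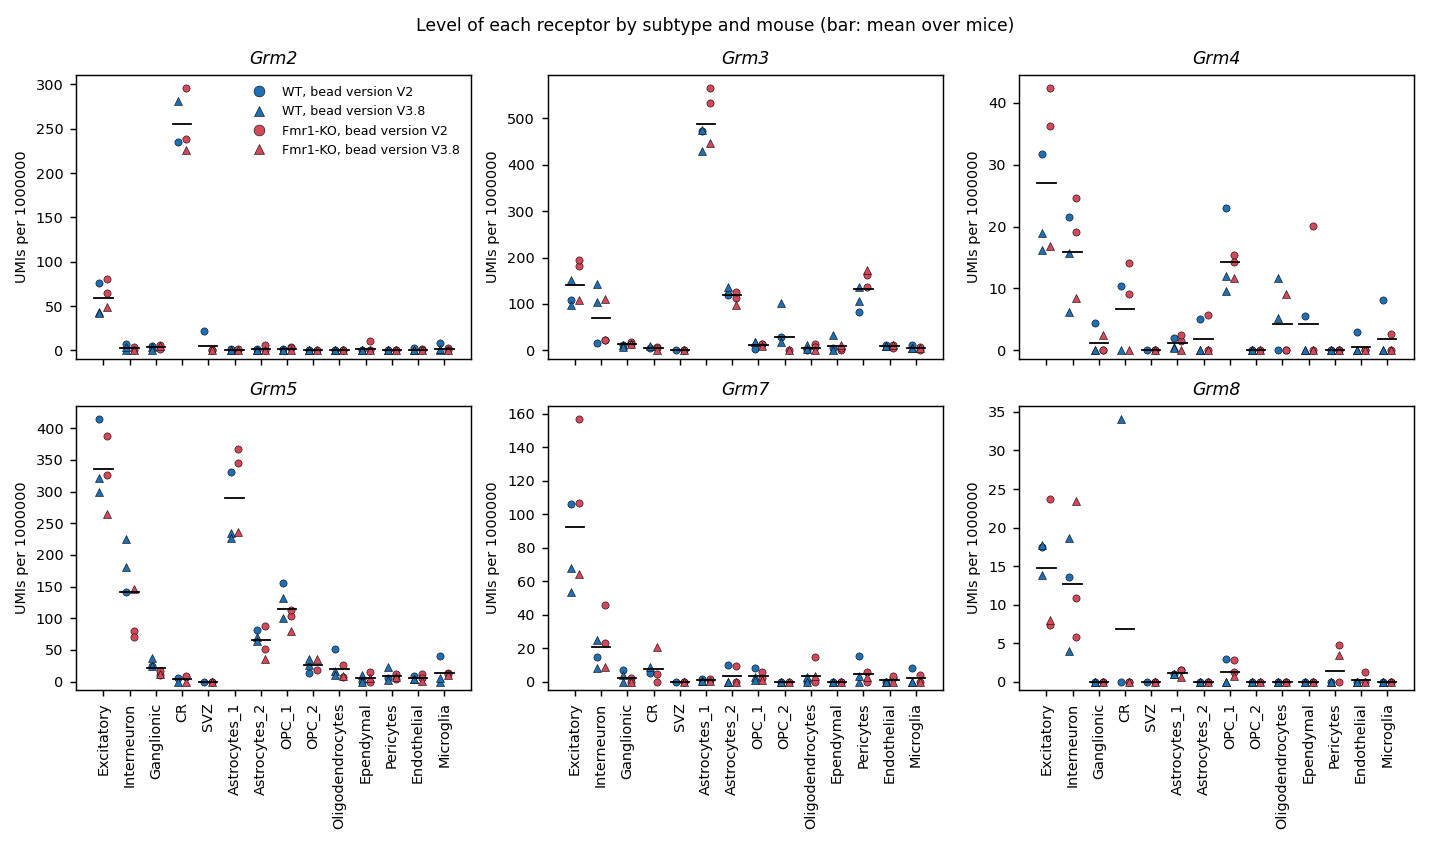
Level of each receptor gene, in CPM of the summed UMIs (vertical axis, labelled UMIs per 1000000, own linear scale for each gene), in the 14 subtypes with at least 10 cells in at least 4 mice. Each point is 1 mouse, coloured by genotype and shaped by bead version, and the bar is the mean over mice. *Grm2* stands highest in CR cells (mean 255.5), *Grm3* in Astrocytes_1 (487), *Grm5* in both excitatory neurons (335) and Astrocytes_1 (290), and *Grm7* in excitatory neurons (92.6).

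The group II genes divided between neurons and astrocytes. *Grm2* was a neuronal transcript that was highest in CR cells, the transient reelin-producing neurons of the cortical surface, with 235 and 281 CPM in WT 1 and WT 3 and 296, 238 and 226 CPM in *Fmr1*-KO 1 to 3. WT 2 had fewer than 10 CR cells and gave no value. The mean of 255.5 ± 31.2 CPM (n = 5 mice) was 4.32 times that of excitatory neurons. Excitatory neurons held 76.1, 43.4 and 41.9 CPM in WT and 64.6, 80.2 and 49.0 CPM in *Fmr1*-KO mice, below the CR cells in each of the 5 mice that could be compared. The exact sign-flip test cannot go below p = 0.0625 with 5 mice, which is the value it gave.

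Outside these neurons *Grm2* was near 0, with means of at most 5.33 CPM, the highest being in SVZ neurons from 1 UMI. None of 890 pericytes had a *Grm2* UMI, which allows a share of up to 0.337%, and none of 354 oligodendrocytes, which allows up to 0.847%. Interneurons had 11 *Grm2* UMIs in 1109 cells. After thinning, 23.6% of CR cells (29 of 123, 16.4 to 32.1%) and 3.07% of excitatory neurons (2.38 to 3.89%) had a *Grm2* UMI, against 0.0786% of Astrocytes_1. Without thinning it was 57.7% of CR cells at a median of 6119 UMIs, 11.9% of excitatory neurons at 1274 and 0.267% of Astrocytes_1 at 3755. With each barcode kept once per mouse, 67.7% of 99 CR cells had one.

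*Grm3* was an astrocyte transcript first of all. Astrocytes_1 held 472, 476 and 430 CPM in WT and 566, 533 and 448 CPM in *Fmr1*-KO mice (487 ± 51.9 CPM), and every mouse had less in its excitatory neurons, by 347 ± 39.1 CPM on average (exact p = 0.0312, the smallest possible with 6 mice, adjusted p = 0.0750). Below them stood 3 populations that could not be ordered, excitatory neurons (140 ± 42.0 CPM), pericytes (133 ± 33.8 CPM) and Astrocytes_2 (119 ± 13.8 CPM), with exact p-values of 0.75 and 0.5 between neighbours. The 2 astrocyte populations thus differed more in *Grm3* than Astrocytes_2 differed from a mural cell of the vessel wall. Interneurons held 69.7 CPM on average, with an SD of 55.8 CPM over mice.

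In ganglionic precursors (13.0 ± 3.33 CPM), OPC_1 (12.4 ± 5.99 CPM) and endothelial cells (10.4 ± 2.35 CPM) *Grm3* was low and could not be ordered (exact p = 0.875 and 0.594). Thinned to 700 UMIs, 27.0% of Astrocytes_1 (1716 of 6365, 25.9 to 28.1%) had a *Grm3* UMI, against 10.1% of pericytes (8.21 to 12.3%), 8.40% of Astrocytes_2 (6.51 to 10.6%), 6.89% of excitatory neurons (5.86 to 8.05%) and 0.701% of endothelial cells (0.337 to 1.28%). Without thinning these shares were 69.9%, 27.3%, 25.8%, 22.5% and 3.68%. Pericytes and endothelial cells, which share the vessel, were thus far apart in *Grm3*, 133 against 10.4 CPM.

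*Grm3* and *Grm5* were the only members at over 5 CPM in Astrocytes_1 and some cells there had both. Of the 6365 thinned cells of Astrocytes_1, 294 had a UMI of both and 38.3% a UMI of either gene. *Grm5* was found in 17.1% of the cells with a *Grm3* UMI and in 15.5% of those without. At 700 UMIs per cell most transcripts are missed, so these shares do not give how many cells carry both receptors. In excitatory neurons *Grm5* joined *Grm3* (42 of 2147 thinned cells with both) and *Grm7* (31 cells), while none of the 123 thinned CR cells had a *Grm5* UMI (4 had without thinning) and 29 had a *Grm2* UMI.

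The group III genes had their highest mean in excitatory neurons, although for *Grm8* the ratio to interneurons was 1.16 and turned to 0.756 with the authors' size factors, 0.98 without WT 3 and 0.915 without *Fmr1*-KO 2. *Grm7*, which encodes the receptor of presynaptic active zones, was at 106, 67.7 and 53.6 CPM in excitatory neurons of WT 1 to 3 and at 107, 157 and 64.2 CPM in those of *Fmr1*-KO 1 to 3 (92.6 ± 38.7 CPM). Interneurons held 20.8 ± 14.2 CPM, less in each of the 6 mice, and the ratio of the means was 4.45. All other subtypes held less than 8 CPM on average, and 23 UMIs were counted in 6371 cells of Astrocytes_1. A *Grm7* UMI was found in 5.36% of thinned excitatory neurons (4.44 to 6.40%), 0.992% of interneurons (0.496 to 1.77%) and 0.0157% of Astrocytes_1, and without thinning in 17.4%, 3.70% and 0.345%.

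*Grm4* was at 31.7, 16.2 and 19.0 CPM in excitatory neurons of WT 1 to 3 and 42.4, 36.2 and 16.9 CPM in those of *Fmr1*-KO 1 to 3 (27.1 ± 11.2 CPM). Every mouse had less in interneurons (15.9 ± 7.28 CPM), by 11.1 ± 5.49 CPM. OPC_1 held 14.3 ± 4.70 CPM of *Grm4*, which was not separated from interneurons (higher in interneurons in 3 of 6 mice, exact p = 0.438) but exceeded Astrocytes_1 (1.14 ± 1.01 CPM) in every mouse. A glial precursor thus stood beside neurons for *Grm4*, unlike for *Grm7*, for which OPC_1 held 3.40 ± 2.87 CPM. *Grm8* was at 17.4, 13.9 and 17.7 CPM in excitatory neurons of WT 1 to 3 and at 7.38, 23.7 and 8.03 CPM in those of *Fmr1*-KO 1 to 3, with a mean of 14.7 ± 6.28 CPM, close to the 12.7 ± 7.47 CPM of interneurons (higher in excitatory neurons in 3 of 6 mice, exact p = 0.781). In 7 of 14 subtypes, ganglionic precursors, microglia and oligodendrocytes among them, no *Grm8* UMI was counted. After thinning, *Grm4* was found in 1.12% of excitatory neurons and *Grm8* in 1.02%, near the value of 1 UMI per 100 cells, against 1.08% and 0.811% of interneurons, 0.768% and 0.102% of OPC_1 and 0.0628% and 0.0471% of Astrocytes_1. The excitatory to interneuron ratio of the *Grm4* level was 1.70, and 1.09 in thinned cells. Without thinning the shares were 6.20% and 4.17%, against 0.361% and 0.471%.

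Over all members, 11 of the 24 neighbour pairs had the same order in every mouse. No pair reached an adjusted p under 0.05 (exact sign-flip test, smallest adjusted p = 0.0750). The exact test cannot go below p = 0.0312 with 6 mice, so the smallest adjusted p depends on how many pairs reach that limit. The genes may have been among those on which the authors clustered the cells, so the levels by subtype are a description.

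Genes whose level across the 14 subtypes was most like that of a member were searched among 12291 genes, as Pearson's r of log2(mean CPM + 10), where the points share libraries and depth. *Grm2* was closest to *Syndig1l*, *Slc24a2* and *Klhl1* (r = 0.983, 0.982 and 0.981), all highest in CR cells. The closest to *Grm7* were *Cdh12*, *Gpr22* and *Pla2g4e* (r = 0.994, 0.988 and 0.986), all highest in excitatory neurons, and *Grm4* was closest to *Fam19a2*, *Asic2* and *Tmem178b* (r = 0.953, 0.938 and 0.933), of which *Asic2* was highest in OPC_1. The genes nearest to *Grm3* were less alike, with r of 0.811 for *Sorcs2*, 0.804 for *Cap2* and 0.801 for *Uqcrq*, all highest in Astrocytes_1. *Grm5* had *Ntng1*, *Lrtm2* and *Cadps2* (r = 0.908, 0.889 and 0.866), of which *Lrtm2* was highest in Astrocytes_1 and the others in excitatory neurons. *Grm8* was below 20 CPM in each subtype and was not searched.

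Some members differed between the bead versions in several populations, across both genotypes. In excitatory neurons *Grm7* ranged from 106 to 157 CPM in the V2 mice and from 53.6 to 67.7 CPM in the V3.8 mice, *Grm2* from 64.6 to 80.2 CPM against 41.9 to 49.0 CPM, and *Grm4* from 31.7 to 42.4 CPM against 16.2 to 19.0 CPM. *Grm5* in Astrocytes_1 ranged from 330 to 367 CPM against 226 to 237 CPM. In each of these 4 cases the mice of the 2 bead versions did not overlap, whatever their genotype. The 4 cases were picked from 15 member levels with at least 100 UMIs. Among the rest, *Grm5* in excitatory neurons and in interneurons also separated, while others, such as *Grm3* in Astrocytes_1 and *Grm2* in CR cells, overlapped. The share of all genes that separated by bead version was not counted. The excitatory markers themselves (6 of 6 measured, none at 0 in any mouse) summed to 2901 to 3464 CPM in Excitatory cells of V2 mice and to 4857 to 5644 CPM in those of V3.8 mice, while the interneuron markers (5 of 5 measured) summed to 649 to 775 CPM in the former and 95.6 to 147 CPM in the latter, with 1 of the 5 at 0 in WT 2. The median depth of Excitatory cells was 976 to 1042 UMIs in V2 mice and 2005 to 8588 UMIs in V3.8 mice. The part of depth and of other cells' transcripts in these differences was not tested, and the bead version was a term of each genotype test below.

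*Grm3* in interneurons split the other way, at 15.8, 21.8 and 22.9 CPM in the V2 mice WT 1, *Fmr1*-KO 1 and *Fmr1*-KO 2 and at 143, 104 and 110.5 CPM in the V3.8 mice WT 2, WT 3 and *Fmr1*-KO 3. The astrocyte markers (6 of 6 measured, none at 0) in interneurons summed to 368 to 475 CPM in V2 and 304 to 373 CPM in V3.8 mice. The part of astrocyte transcripts in the *Grm3* level of interneurons was not tested. Very few cells carried the *Grm3* signal. The 24 of 1109 interneurons with over 10000 UMIs (a limit set after seeing the data) held 116 of 170 *Grm3* UMIs (68.2%) and 169 of 434 *Grm5* UMIs (38.9%). In WT 2, 3 of 59 interneurons held all 23 *Grm3* UMIs, and in WT 3, 10 of 168 held 48 of 53. Without the deep cells *Grm3* lay between 0 and 33.5 CPM in the 6 mice.

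Compared with the other interneurons, the deep cells had 354 against 18.3 CPM of *Grm3* and 516 against 89.7 CPM of *Grm5* (all mice pooled, so without a test). Their markers also differed. *Gad1* (434 against 356 CPM), *Gad2* (422 against 534 CPM) and the vesicular GABA transporter *Slc32a1* (455 against 187 CPM) were present in both, whereas *Dlx1* was at 196 against 931 CPM, and *Htr3a*, a marker of 1 interneuron class, at 0 against 94.4 CPM. The 6 astrocyte markers summed to 171 CPM in the deep cells and to 410 CPM in the others, and the 6 excitatory markers to 532 and 299 CPM. The interneuron markers summed to 1506 CPM in the deep cells and to 2103 CPM in the others. The deep cells thus held GABAergic markers. In sum they had less of the interneuron and astrocyte markers and more of the excitatory markers than the rest. The excitatory markers did not move together. *Lpl* was at 290 against 36.2 CPM, *Neurod2* at 79.4 against 38.6, *Neurod6* at 45.8 against 24.7 and *Slc17a6* at 24.4 against 12.5 CPM. *Nrgn* (91.7 against 183 CPM) and *Slc17a7* (0 against 4.06 CPM) were lower in the deep cells. Whether some of the deep cells are doublets that the authors did not mark was not tested.

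**Figure D2:**
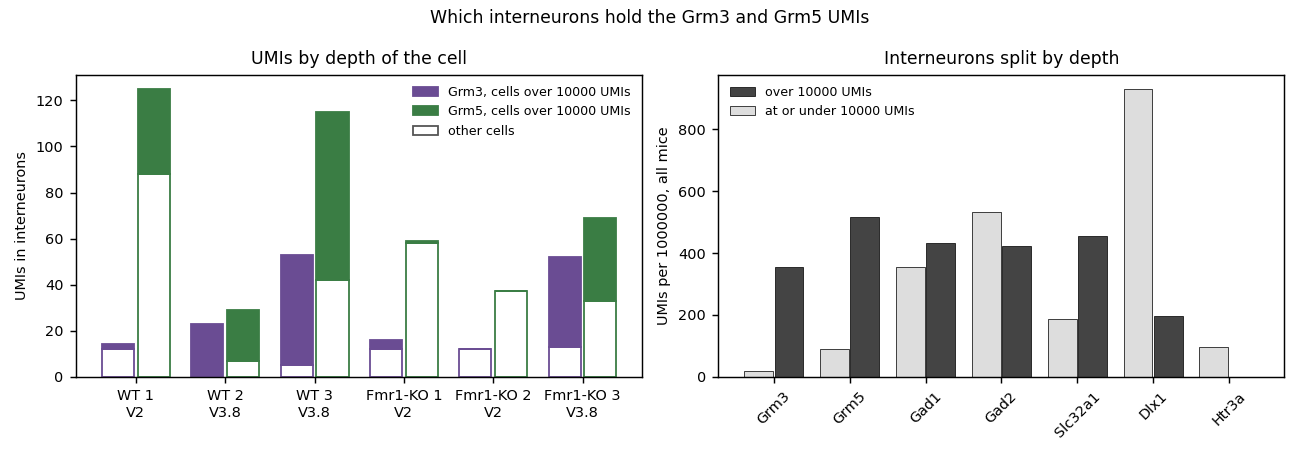
Left, *Grm3* and *Grm5* UMIs counted in the interneurons of each mouse, with the filled part from cells of more than 10000 UMIs and the open part from all other interneurons; the 24 deep cells hold 116 of 170 *Grm3* UMIs. Right, CPM of both receptors and of 5 interneuron markers in deep and other interneurons, all mice pooled, where *Grm3* stands at 354 against 18.3.

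For the comparison of *Fmr1*-KO with WT mice, UMIs were summed per mouse in 10 subtypes and in all neurons together and tested with edgeR's quasi-likelihood test with bead version as a covariate. Changed meant an FDR (Benjamini-Hochberg) under 0.01 and a level at least 15% higher in the group where it was higher. CR cells, of which 57.7% had a *Grm2* UMI, were not among the 10 subtypes and had no genotype test of their own. In the types tested, only *Grm3*, *Grm5* and *Grm7* had a UMI in 15% of the cells, in 9 tests. None of these was called, where 0.0141% of all tests across the 11 types were (6 of 42575), 3 had an unadjusted edgeR p under 0.05, as did 6.07% of all tests, and the smallest FDR was 0.0564. Among all genes with 20 UMIs in the type, 35 of 66 possible member tests could be made, none was called (0.00509% of all, 6 of 117805), 4 had an unadjusted p under 0.05, as did 4.95% of all tests, and the smallest FDR was 0.119. DESeq2 called 1 member test in either set, *Grm5* in all neurons, and so did edgeR with no filter on low genes. Over all genes DESeq2 called 23 tests in the first set and 22 in the second, and edgeR with no filter 259, against 6. The check gene *Fmr1* was called in Astrocytes_1 (log2 fold change -2.15, edgeR FDR 7.71e-05) and OPC_1 (-1.78, FDR 0.00416). In the other 9 types it was measured among genes with 20 UMIs, with log2 fold changes from -1.29 in excitatory neurons to -3.14 in pericytes, and was not called in any of them (edgeR FDR from 0.0479 in Astrocytes_2 to 0.998 in microglia). In all neurons it gave -1.51 (FDR 0.0605), in excitatory neurons the FDR was 0.722 and in interneurons -1.80 had an FDR of 0.108, so that in neurons the test did not call the deleted gene itself.

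*Grm5* in all neurons was at 233, 274 and 254 CPM in WT 1 to 3 and at 140, 143 and 177 CPM in *Fmr1*-KO 1 to 3. All 3 *Fmr1*-KO mice lay below all WT mice, with a log2 fold change of -0.65 (SE 0.10, 95% interval -0.88 to -0.42) and an edgeR FDR of 0.0564, over the limit of 0.01. DESeq2 gave an FDR of 0.00261 for this comparison, and edgeR on unfiltered genes 0.000136. Among genes in 15% of neurons, the set of this test, 8.45% were lower at an unadjusted p under 0.05. How many of all genes kept the genotypes apart in neurons was not counted.

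The makeup of the neurons moved along with it. Excitatory neurons, where *Grm5* is highest, were 56.8, 75.3 and 49.5% of the neurons in WT 1 to 3 and 42.0, 48.6 and 35.6% in *Fmr1*-KO 1 to 3, while ganglionic precursors, where it is low, were 10.9, 13.2 and 12.3% and 18.5, 23.5 and 22.2%. With equal numbers of excitatory neurons, interneurons and ganglionic precursors drawn from each mouse, the log2 fold change was -0.38 (edgeR FDR 0.999, unadjusted p under 0.05). Within excitatory neurons it was -0.22 (SE 0.13, 95% interval -0.49 to 0.06, edgeR FDR 1.00), with overlapping genotypes (WT 299 to 415 CPM, *Fmr1*-KO 265 to 387 CPM), and the bead versions gave -0.22 and -0.23. The part of the makeup in the difference of all neurons was not tested beyond these values.

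**Figure D3:**
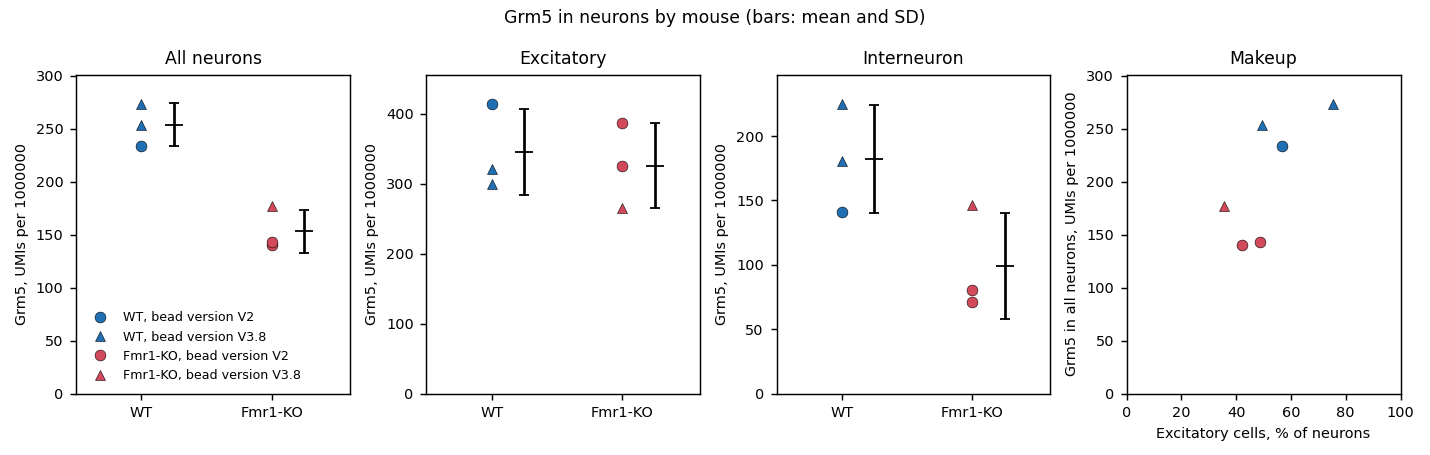
*Grm5* in CPM in all neurons, excitatory neurons and interneurons of each mouse by genotype, with the mean and SD of 3 mice beside the points, and at the right *Grm5* in all neurons against the share of excitatory cells among the neurons. The genotypes separate in all neurons (233 to 274 against 140 to 177) and overlap in excitatory neurons and interneurons, and the *Fmr1*-KO mice hold 35.6 to 48.6% excitatory cells against 49.5 to 75.3% in WT mice.

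In interneurons *Grm5* was at 141, 180 and 225 CPM in WT 1 to 3 and at 80.5, 70.8 and 147 CPM in *Fmr1*-KO 1 to 3, lower in *Fmr1*-KO mice within V2 (log2 ratio -0.90) and within V3.8 (-0.47), although *Fmr1*-KO 3 overlapped WT 1. The log2 fold change of -0.69 (SE 0.19, 95% interval -1.08 to -0.29) had an edgeR FDR of 0.600 and an unadjusted p under 0.05, which 1.96% of the genes with 20 UMIs had in this direction. It was -0.30 (edgeR FDR 0.999) without the 24 deep cells and -0.48 (FDR 1.00) without WT 1, in both cases with an unadjusted p over 0.05, as also in thinned cells (-0.63). In OPC_1 *Grm5* was at 156, 132 and 100.1 CPM in WT 1 to 3 and at 103, 113 and 79.9 CPM in *Fmr1*-KO 1 to 3 (log2 fold change -0.51, SE 0.15, 95% interval -0.83 to -0.18, edgeR FDR 0.947). Its unadjusted p was under 0.05, as it was for 1.89% of the genes in 15% of OPC_1 in this direction. The difference was -0.53 among V2 and -0.54 among V3.8 mice, the genotypes overlapped between them, and it was -0.14 (edgeR FDR 0.994) when cells were thinned to 700 UMIs and -0.37 (FDR 0.997) with no bead version term, both with an unadjusted p over 0.05.

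Astrocytes_1, with 8679 *Grm5* UMIs the best measured population, gave a log2 fold change of 0.09 (SE 0.08, 95% interval -0.08 to 0.27, edgeR FDR 0.925). Astrocytes_2 gave -0.49 (SE 0.28, edgeR FDR 0.999) and ganglionic precursors -1.01 (SE 0.51, FDR 0.937) from 48 UMIs, where WT mice held 24.6, 37.0 and 23.8 CPM and *Fmr1*-KO mice 9.85, 16.9 and 12.2 CPM without overlap. The log2 fold change of *Grm5* was below 0 in 9 of the 10 subtypes, of which interneurons and OPC_1 had an unadjusted p under 0.05, while of all genes 46.9 to 51.2% were below 0 in these types. The count was 7 to 9 under the alternatives tried. The subtypes come from the same mice and are not independent, and some estimates rest on few UMIs (21 in pericytes). The share of all genes below 0 in as many subtypes was not counted, nor was the share without overlap of the genotypes in ganglionic precursors.

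**Figure D4:**
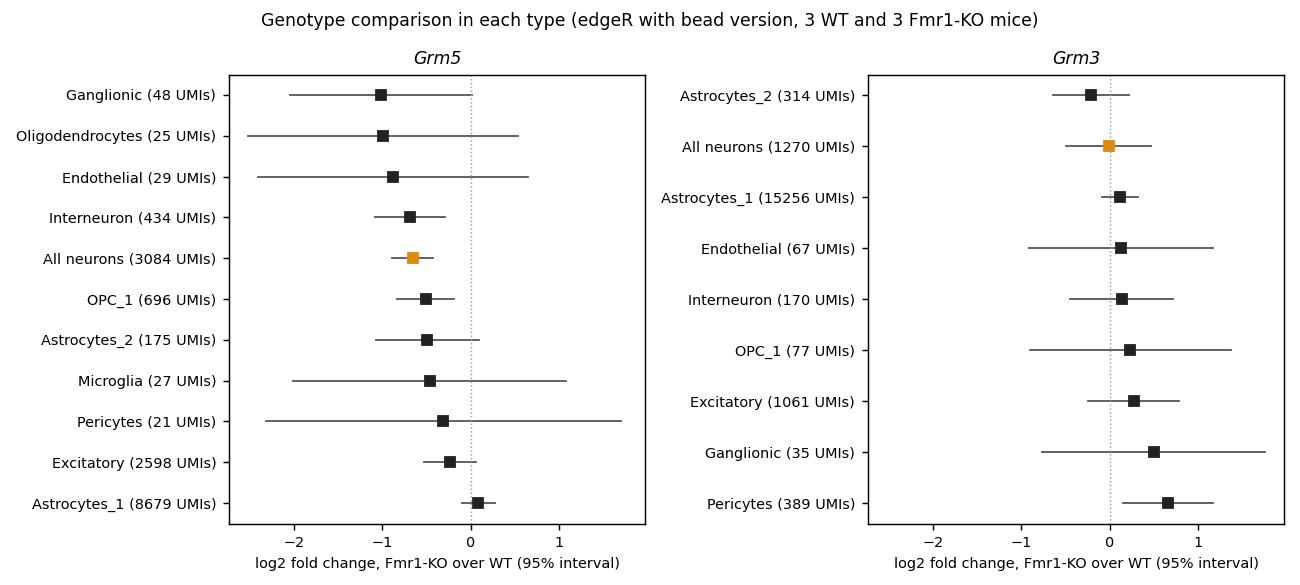
Log2 fold change of *Fmr1*-KO over WT mice with its 95% interval (horizontal axis, edgeR with bead version, 3 mice per genotype, genes with 20 UMIs) for *Grm5* and *Grm3* in each type tested, ordered by the estimate and labelled with the UMIs behind it. The interval of *Grm5* lies below 0 in all neurons, interneurons and OPC_1 and spans 0 in Astrocytes_1, and that of *Grm3* lies above 0 in pericytes.

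Whether the *Grm5* difference depended on the cell type was tested directly, with the mouse as a block. The genotype effect in interneurons was not separated from that in excitatory neurons (excitatory minus interneuron 0.78, SE 0.38, 95% interval -0.02 to 1.58, edgeR FDR 1.00), nor that of excitatory neurons from Astrocytes_1 (-0.33, SE 0.21, FDR 1.00). Comparisons added after seeing the data gave a lower effect than in Astrocytes_1 for OPC_1 (-0.59, SE 0.16, edgeR FDR 0.968) and for interneurons (-1.10, SE 0.41, FDR 1.00), both with an unadjusted p under 0.05. The unadjusted p of the latter was over 0.05 without WT 2, WT 3, *Fmr1*-KO 1 or *Fmr1*-KO 2. None of the member tests passed an FDR of 0.05, which 0.00141% of all genes did over the type pairs (1 of 70692). An unadjusted p under 0.05 was found in 2, both among the comparisons added after seeing the data. The share of all genes at that limit was not counted.

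*Grm3* in Astrocytes_1, at 472, 476 and 430 CPM in WT and 566, 533 and 448 CPM in *Fmr1*-KO mice, changed by 0.12 on the log2 scale (SE 0.09, 95% interval -0.09 to 0.32, edgeR FDR 0.925) from 15256 UMIs. In pericytes it was at 82.2, 136 and 107 CPM in WT 1 to 3 and at 162, 137 and 172 CPM in *Fmr1*-KO 1 to 3, without overlap, although *Fmr1*-KO 2 exceeded WT 2 by little (137.4 against 136.3 CPM). The log2 fold change was 0.63 (SE 0.23, 95% interval 0.14 to 1.13, edgeR FDR 0.996), with 0.87 among V2 and 0.50 among V3.8 mice, and 1.71% of the genes in 15% of pericytes were higher at an unadjusted p under 0.05. The share of all genes without overlap of the genotypes in pericytes was not counted. The unadjusted p of *Grm3* was over 0.05 without WT 1, WT 3 or *Fmr1*-KO 3, with no bead version term, with DESeq2 and in thinned cells. Astrocyte markers in these pericytes summed to 483.5 to 798.5 CPM in WT and 306 to 355 CPM in *Fmr1*-KO mice (6 of 6 measured, 1 of them at 0 in WT 1 and in *Fmr1*-KO 2). The part of astrocyte transcripts in the *Grm3* level of pericytes was not tested.

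In excitatory neurons *Grm3* was at 108, 97.2 and 152 CPM in WT 1 to 3 and at 181, 195.5 and 108 CPM in *Fmr1*-KO 1 to 3 (log2 fold change 0.29, SE 0.24, edgeR FDR 1.00), higher in *Fmr1*-KO among V2 mice (0.80) and lower among V3.8 mice (-0.21). Astrocytes_2 gave -0.21 (SE 0.21, edgeR FDR 0.990). Ganglionic precursors gave 0.50 (SE 0.63, edgeR FDR 0.994) from 35 *Grm3* UMIs. They held 11.2, 12.3 and 7.93 CPM in WT 1 to 3 and 17.7, 14.1 and 14.6 CPM in *Fmr1*-KO 1 to 3. There *Grm3* was thus higher in *Fmr1*-KO mice without overlap, where *Grm5* was lower without overlap. The log2 fold change of *Grm3* was above 0 in 7 of 8 subtypes, 1 of them at an unadjusted p under 0.05. This count was 3 of 8 without WT 1 and 4 of 8 without the bead version term. These subtypes also share their mice, and the share of all genes above 0 in as many subtypes was not counted. The genotype effect in pericytes minus that in Astrocytes_1 was 0.42 (SE 0.26, edgeR FDR 1.00), a comparison also added after seeing the data.

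*Grm7* in excitatory neurons, the only member of group III in 15% of the cells of a type, had a log2 fold change of 0.24 (SE 0.20, 95% interval -0.19 to 0.67, edgeR FDR 1.00). *Grm2* gave 0.06 (SE 0.20), *Grm4* 0.12 (SE 0.27) and *Grm8* -0.50 (SE 0.44, from 122 UMIs) there, and in each the genotypes overlapped. All of these intervals include 0. In CR cells *Grm2* lay between 235 and 281 CPM in 2 WT mice and between 226 and 296 CPM in 3 *Fmr1*-KO mice, and its genotype effect in excitatory neurons minus that in CR cells was 0.19 (SE 0.42, edgeR FDR 1.00, 5 mice). In all neurons together the members other than *Grm5* gave -0.15 (*Grm2*), -0.01 (*Grm3*), -0.27 (*Grm4*), -0.15 (*Grm7*) and -0.56 (*Grm8*), with edgeR FDRs of 0.538 or more, and in an equal mix of neuron subtypes those of *Grm2*, *Grm3*, *Grm7* and *Grm8* turned to above 0. The 15 member tests with fewer than 100 UMIs (21 to 87) ranged from -1.01 to 0.70 in log2 fold change, with a smallest edgeR FDR of 0.853 and no unadjusted p under 0.05.

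Genes around these receptors were read from 5 lists of 101 genes in all. The Gq arm of group I signalling (*Gnaq*, phospholipases, IP3 receptors, protein kinase C and regulators) had 24 tests over excitatory neurons, interneurons, Astrocytes_1 and OPC_1, none at an unadjusted p under 0.05, and medians from -0.11 to 0.02 where all genes had medians of 0.00 in each type. *Gnaq* itself, the G protein of the *Grm5* receptor, gave -0.11 (SE 0.13) in interneurons and -0.15 (SE 0.12) in OPC_1. The Gi/o arm of groups II and III (Gi/o alpha, beta and gamma subunits, adenylyl cyclases and inward rectifier channels) had 46 tests with 1 higher and 3 lower. The scaffolds and partners (Homer, Shank, SAPAP and others) had 25 tests with 0 higher and 2 lower and medians down to -0.19 in OPC_1. The translation and long-term depression pathway had 69 tests with 1 higher and none lower, and the ionotropic receptors had 21 tests with none. No list gene was called.

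In excitatory neurons 0 of 58 list genes were higher and 1 lower at an unadjusted p under 0.05, where 1.93% and 1.55% of all genes were. The gene was *Shank3*, a postsynaptic scaffold, at -0.51 on the log2 scale (SE 0.19, edgeR FDR 1.00). In interneurons 0 of 40 were higher and 1 lower, where 2.14% and 2.39% of all genes were. It was the adenylyl cyclase *Adcy1*, at 141, 684 and 729 CPM in WT 1 to 3 and 84.6, 82.2 and 423 CPM in *Fmr1*-KO 1 to 3 (log2 fold change -0.75, SE 0.14, edgeR FDR 0.0945). It was far higher in the V3.8 mice of both genotypes, as *Grm3* was in these cells, and lower in *Fmr1*-KO within each bead version.

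In Astrocytes_1 1 of 40 list genes was higher (*Gnai3*, an inhibitory G protein subunit, 0.20, SE 0.08) and 2 were lower (*Gnb5*, a G protein beta subunit, -0.37, SE 0.15, and *Dlg4*, the scaffold PSD-95, -0.31, SE 0.13), where 2.43% and 2.29% of all genes were higher and lower (edgeR FDR 0.923 for each of the 3). In OPC_1 1 of 47 was higher (the kinase *Map2k2*, 0.33, SE 0.12) and 1 lower, where 2.36% and 1.89% of all genes were. The lower gene was *Gnao1*, the alpha subunit of Go, at 304, 191 and 178 CPM in WT 1 to 3 and 255, 203 and 138 CPM in *Fmr1*-KO 1 to 3 (log2 fold change -0.40, SE 0.12, edgeR FDR 0.947). The scaffold *Homer1*, which binds the *Grm5* receptor, gave -0.37 (SE 0.19, edgeR FDR 0.947) in OPC_1. The most abundant list genes gave values near 0, such as *Gria2*, the AMPA receptor subunit, with 0.05 (SE 0.12) in excitatory neurons, and *Map1b*, a target of FMRP, with -0.02 (SE 0.13).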

How the data were processed

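Single-cell libraries of the P5 cortex of 6 mice, 3 of each genotype, were used. The authors aligned reads with TopHat2 2.0.14 to mm10, counted UMIs per gene with ESAT, ignoring reads of several positions, and dropped barcodes under 700 UMIs, and the deposited UMI counts are not normalized. The size factors of the cells, deposited as a ratio that sets each cell's depth within its batch and made by the authors with scran, served in 1 alternative. Subtypes are those they assigned. Which strand was counted is not given in the sources used here. Depth was 7909181 to 20629134 UMIs per mouse, and counting error is largest in the rarest types.

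UMI counts were summed per mouse and subtype, leaving out doublets and mice with fewer than 10 cells of the type. The test was edgeR 4.0.16 (quasi-likelihood, TMM, bead version as covariate; R 4.3.3), with Benjamini-Hochberg adjustment over all genes of the type, in types with at least 100 cells per genotype. Genes needed a UMI in 15% of cells or, in a second fit, 20 UMIs. Differences between types had the mouse as a block. Levels were compared with exact sign-flip tests, and shares after thinning cells to 700 UMIs (41 shallower cells left out). On simulated data with 200 genes changed at once by a log2 fold change of 1, 96% of them were recovered in excitatory neurons (3737 genes). In Astrocytes_1 (4814 genes) it was 99.5%, all among genes in 15% of cells. The simulation held no difference between bead versions. With 200 changed genes the FDR limit is easier to pass than where few genes change, so these shares do not give the recovery of a single changed gene. Below that limit recovery was not simulated, and *Fmr1* in excitatory neurons (414 UMIs, log2 fold change -1.29, edgeR FDR 0.722) was not called. Alternatives were no bead version term, the replicate number as a block, no TMM, DESeq2 1.42.0, no filter, thinned cells, an equal neuron mix, size factors, and each mouse left out. In endothelial cells doublets were also kept as an alternative. The named genes were the members, *Fmr1*, from each list in each type the 2 genes with the smallest p and the 1 with the most UMIs, and the 3 genes most like each member. The members and lists were chosen with earlier results of these data known.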

Additional observations from a re-analysis of the deposited data

Results flagged for a closer look

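Cells that the authors marked as doublets had a *Grm3* UMI in 19.5% of 1113 cells (95% Clopper-Pearson interval 17.2 to 21.9%) and a *Grm5* UMI in 12.8% (10.9 to 15.0%). This is a signal in data that no main comparison used. Doublets entered only an alternative for endothelial cells, where the log2 fold change of *Grm3* was -0.94 with them and 0.13 without. The other members were found in 0.270 to 0.449% of the doublets. None of the 15 member levels tested for an outlying mouse had one.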

How the results depend on the processing

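No member was called in either gene set, except for 1 (*Grm5* in all neurons) with DESeq2 in both sets and with no filter on low genes. Of the 20 fold changes with at least 100 UMIs, 8 kept their direction under every alternative run. Over the alternatives, the log2 fold change of *Grm5* ranged from -0.72 to -0.38 in all neurons, from -0.88 to -0.30 in interneurons, from -0.59 to -0.14 in OPC_1 and from 0.05 to 0.27 in Astrocytes_1. In excitatory neurons thinning reversed *Grm7* (-0.42), *Grm2* (-0.41) and *Grm4* (-0.43), and in Astrocytes_2 *Grm3* (0.22) and *Grm5* (0.11). In all neurons the equal mix reversed *Grm2* (0.33), *Grm3* (0.24), *Grm7* (0.53) and *Grm8* (0.21), and *Grm3* was 0.060 with thinning and 0.0073 with each barcode once per mouse, an alternative chosen after seeing the data. *Grm3* in interneurons was -0.58 with no bead version term. As each mouse was left out, *Grm3* ranged from -0.0027 to 0.24 in Astrocytes_1, -0.47 to 0.0016 in Astrocytes_2, -0.22 to 0.82 in excitatory neurons, -0.048 to 0.50 in interneurons and -0.37 to 0.39 in all neurons, *Grm2* from -0.093 to 0.23 and *Grm4* from -0.038 to 0.25 in excitatory neurons, and *Grm7* from -0.40 to 0.0064 in all neurons. The difference of effects ranged from -1.85 to 0.10 for *Grm8* (excitatory minus interneuron) and from -0.32 to 0.77 for *Grm2* (excitatory minus CR). Of the 15 fold changes under 100 UMIs, 33 of 200 alternatives reversed the direction. The count of subtypes with *Grm3* higher was 4 with no bead version term and 3 to 7 as each mouse was left out (3 without WT 1). The level ratio of *Grm2* (CR over excitatory) was 9.71 thinned and 5.85 with size factors, of *Grm4* (excitatory over interneuron) 1.09 thinned, of *Grm7* 7.56 with size factors, and of *Grm8* 0.756 with size factors and 0.915 to 1.52 as each mouse was left out. The causes were not tested.

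Across all genes, 6 calls in 15% of cells became 1 with no bead version term, 23 with DESeq2, 259 with no filter, 3 thinned and 2 to 13 leaving out mice. With 20 UMIs, 6 became 1, 22 and 18 (no bead version term, DESeq2, thinned), 13 at FDR 0.05 and 3 to 16 leaving out mice. With the replicate number as a block in place of bead version, 2 and 5 genes were called, *Grm5* in all neurons was -0.72 (edgeR FDR 0.209), *Grm3* in interneurons -0.52, and no member was called. Deviations of mice with the same number correlated at 0.51 to 0.67 for number 1, -0.33 to -0.53 for number 2 and 0.57 to 0.76 for number 3. The mice of number 1 were both V2, those of number 3 both V3.8 and those of number 2 of different versions. For numbers 1 and 3 a pairing by number and the bead version therefore cannot be told apart. For number 2, where the versions differ, the correlations were negative. A pairing by number was not tested further.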
